A study of Mus musculus with 12 samples.

Results

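The response of macrophages to LPS alone was examined across all genes. The comparison used 6 of the 12 libraries of the study, which were the 3 whose labels give PBS as the intervention and the 3 whose labels give LPS. The other 6 libraries received the milk sugar 3′-sialyllactose, with or without LPS, and entered only the filter on low counts, the common estimate of the spread, and the search for library sets. The cells were bone marrow–derived macrophages (BMDMs), which are grown in culture from mouse marrow, and they were treated for 6 hours with PBS or with LPS at 10 ng/mL. The labels of the libraries call the cells macrophages but describe the treatment as injections given to mice, so dose, time, and origin were taken from the description of the experiment. The genotype, strain, sex, and age of the marrow donors are not given in the sources used here. Nothing in the labels ties a library to an animal or a culture, so the p-values measure the spread between libraries, which may be technical. The PBS libraries held 22666272 to 26851890 reads on genes and the LPS libraries 23286990 to 25082544. Of the 43626 genes in the count tables, 14308 had enough reads to be tested. Genes were named by rules on size, level, and membership of a list, and 78 of the 666 genes so chosen share over 10% of the 50-base words of their transcripts with another gene, which makes the assignment of their reads uncertain. Among those described below, this holds for Ass1, Bcl2a1d, Cfb, Csf3r, Ctsd, Fpr2, Gapdh, several Gbp genes, H2-T22, Igtp, Lyz2, Pgk1, Pkm, Ppia, Psme2, Rpl10a, Rpl12, Serpina3f, Sod2, Tlr1, Tlr6, Tnfsf12, Uhrf1, Ywhaz, and Zfp566. The exons of Zfp36l1, Cxcl11, Arg2, P2ry1, Psmc3ip, and Cebpb overlap genes of the opposite strand over 20.7 to 55.9% of their bases, and whether the counting used the strand is not given in the sources used here.

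LPS is a glycolipid on the surface of gram-negative bacteria. With the help of CD14 and MD-2 it is recognized by TLR4, which signals through MyD88 to NF-κB and AP-1 and, after uptake, through TRIF to IRF3 and the interferon β gene. Interferon β that is released acts back on its receptor and, through the ISGF3 complex, on interferon-stimulated response elements in the promoters of antiviral genes. Macrophages grown with CSF1 still divide, and their genes for DNA replication are controlled by E2F factors.

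LPS changed 5502 genes (38.5% of those tested) by at least 1.5-fold at an adjusted p under 0.05 in edgeR's quasi-likelihood test. Of these, 2613 rose (18.3%) and 2889 fell (20.2%). With TMM factors, the rises were larger than the falls, with a median of 3.15-fold against 2.42-fold. At 4-fold or more, 1086 genes rose and 645 fell, at 16-fold or more 351 rose and 66 fell, and at 64-fold or more 135 rose and 10 fell. The 3 LPS libraries lay entirely above the 3 PBS libraries for 27.3% of the genes tested and entirely below them for 31.1%. These numbers were obtained with TMM factors, which set the bulk of the genes to no change, so that the log2 fold change had a median over the genes tested of -0.061. When the same counts were scaled by the total reads of each library, 1535 genes rose (10.7%) and 6657 fell (46.5%), and the median was -0.71. At 4-fold or more, 730 genes then rose and 1490 fell, at 8-fold or more 414 and 446, and at 16-fold or more 243 and 131. No gene that was called under both scalings changed direction, which largely follows from the rules. The change of scaling shifted log2 fold changes by a median of -0.65, and calls start at 0.585 in each direction. Because the calls depend on the scaling, every log2 fold change given here is relative to the TMM centre, unless total counts are named.

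**Figure D1:**
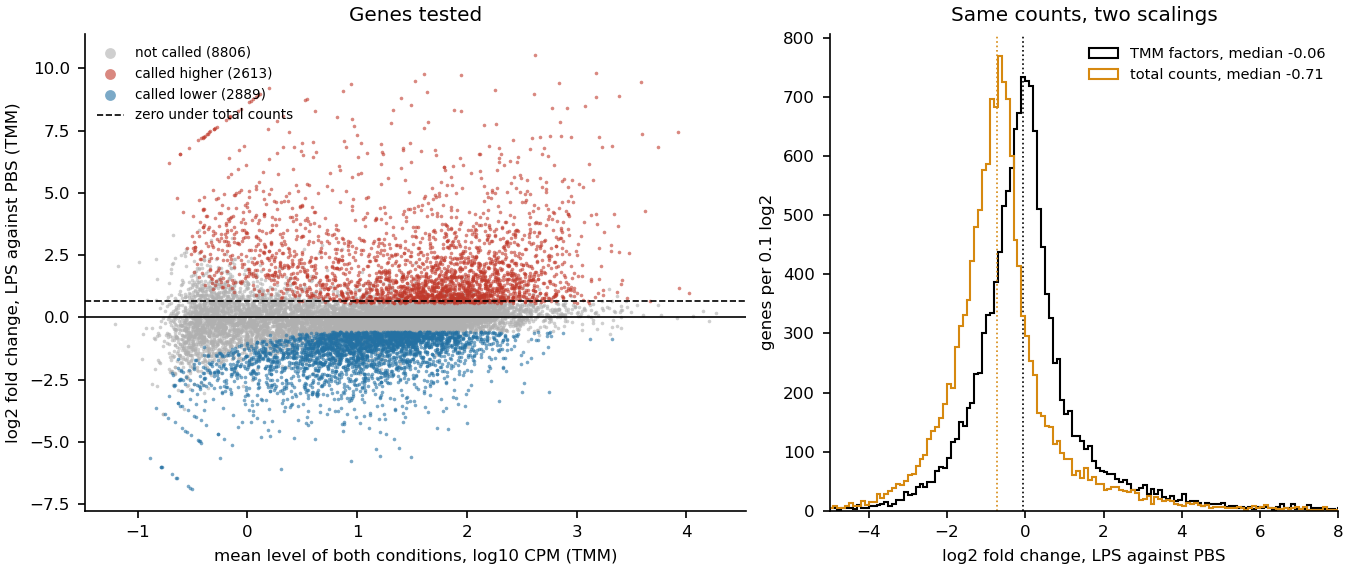
Left, the log2 fold change of each gene tested with LPS against PBS (TMM factors) over its mean level in log10 CPM, where CPM is the read count relative to the scaled library size; genes called higher, genes called lower, and other genes are drawn in separate colors. Right, the number of genes per 0.1 of log2 fold change with TMM factors (median -0.061) and with total counts (median -0.71), so the same distribution lies 0.65 further to the left with total counts.

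Macrophage markers were present in all 6 libraries. The summed level of 9 markers was 19100, 21050, and 21740 CPM in the PBS libraries and 27040, 28550, and 30240 CPM in the LPS libraries. Of these 9, 5 rose and none fell, while Csf1r and Cd68, the receptor for CSF1 and an endosomal glycoprotein, were among the 4 without a call. With total counts, 3 of the 9 rose and 1 fell, and their median log2 fold change went from 0.59 to -0.078. The 5 markers of T or NK cells had too few reads to be tested, with none for Cd3e, Cd3g, and Ncr1 and at most 7 over the 3 libraries of a condition for Cd3d and Nkg7, and markers of B cells, mast cells, and erythroid cells summed to at most 3.42 CPM in any library. Markers of stromal cells were uneven between libraries, at 553, 24.1, and 74.5 CPM with PBS and 642, 43.2, and 99.9 CPM with LPS, and none of the 7 that were tested was called. Markers of neutrophils summed to 139, 264, and 546 CPM with PBS and 221, 447, and 1015 CPM with LPS, also with no call. Between LPS and PBS libraries of the same number, the median log2 ratio was 0.49, 0.98, and 0.54 for stromal and 0.59, 0.74, and 0.99 for neutrophil markers. The main fit does not pair these libraries, so the lack of a call does not show a lack of change. Markers of other cell types moved with LPS in part. Of the dendritic cell markers, 2 of 3 tested rose, Xcr1 by 3.78 and Clec9a by 3.47, and the list summed to 1.32, 0.666, and 1.25 CPM with PBS and 7.57, 5.52, and 14.7 CPM with LPS. Of the osteoclast markers, Acp5, the tartrate-resistant acid phosphatase, rose by 3.43 and the other 2 tested were not called, with sums of 15.9, 16.2, and 26.4 CPM and 108, 150.1, and 196 CPM. Of the 3 tested, the LPS libraries lay entirely above the PBS libraries for 2 and entirely below them for 1. Over all genes tested, this held for 27.3% and 31.1%. With total counts, 1 of the 3 rose and 1 fell. Of the endothelial markers, 2 of 3 tested were called higher, Cdh5 (1.98) and Kdr (0.99), neither of them with total counts, or without PBS library 1 or PBS library 2, nor Cdh5 without LPS library 3 or Kdr without LPS library 1. The other endothelial marker tested, Vwf, was called lower with total counts. The sums were 66.4, 74.9, and 41.4 CPM and 55.3, 58.2, and 45.1 CPM. The part of such cells in the results was not tested. After condition means were removed, the 12 libraries formed 3 sets of 4 with 1 library of every condition each, and a mean correlation of 0.57 within sets and -0.34 between them. The third PBS and LPS libraries, which belong to 1 set, stood apart from the others. Relative to the other PBS libraries, the third held more interferon-stimulated, MHC class II, and neutrophil mRNA and less mRNA of dividing cells, and the values are given beside each result below. Without that set, 5554 genes were called, 2551 higher and 3003 lower. In bulk RNA, a change in the share of cells that express a gene and a change in mRNA per cell cannot be told apart.

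Among protein-coding genes, the largest rise was that of Nos2, the inducible nitric oxide synthase, at 0.545, 0.631, and 0.506 CPM in the PBS libraries and 502, 642, and 1337 CPM in the LPS libraries (log2 fold change 10.52, SE 0.77, adjusted p = 2.51e-06). Other genes with a near absence before and a high level after LPS coded for cytokines. Il1b mRNA was at 2.04, 2.42, and 5.53 CPM in the PBS libraries and 2234, 2916, and 3772 CPM in the LPS libraries (log2 fold change 9.80, SE 0.93, adjusted p = 1.28e-05), and Il1a mRNA rose from 1.32, 2.28, and 2.40 CPM to 1088, 1271, and 1760 CPM (log2 fold change 9.43). For Il12b, which codes for the p40 subunit of IL-12 and IL-23, the LPS libraries held 177, 224, and 131 CPM against 0.23, 0.0351, and 0.337 CPM with PBS (log2 fold change 9.73). Il6 mRNA reached 66.9, 105, and 88.5 CPM from 0.287, 0.0351, and 0.135 CPM (log2 fold change 9.04, SE 0.64, adjusted p = 2.22e-06). For each of these genes the highest PBS library stayed far below the lowest LPS library, but lack of overlap was part of the rule for the largest rises. Acod1, the enzyme that makes itaconate, rose from 6.55, 9.37, and 17.3 to 7206, 7953, and 7857 CPM (log2 fold change 9.44, SE 0.88, adjusted p = 1.10e-05), and its LPS libraries were nearly equal. Endothelial lipase (Lipg) was at 0.517, 0.491, and 0.911 CPM with PBS and at 194, 235, and 651 CPM with LPS (log2 fold change 9.13). The lymphocyte activation antigen Cd69, the serine protease inhibitor Serpina3f, the chemokine Cxcl10, and the guanylate-binding protein Gbp2b were also among the 12 largest rises of protein-coding genes with at least 10 CPM in the LPS libraries, with log2 fold changes of 8.97, 9.79, 8.89, and 8.86. Heatr9, a gene with HEAT repeats, belonged to them as well, and since its PBS libraries held 2 reads in all, its levels are given without a fold change, 0, 0.0702, and 0 CPM with PBS and 10.0, 11.2, and 31.6 CPM with LPS.

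The largest falls were smaller and were led by genes of DNA replication and repair. Ung, which removes uracil from DNA, was at 19.3, 21.4, and 11.3 CPM in the PBS libraries and 0.537, 0.242, and 0.123 CPM in the LPS libraries (log2 fold change -5.79, SE 0.83, adjusted p = 2.16e-04). Cdc6, a loading factor of the replicative helicase, fell from 37.0, 38, and 12.4 to 1.22, 0.387, and 0.614 CPM (log2 fold change -5.28, SE 0.79, adjusted p = 2.89e-04). Among the 12 genes with the largest falls, Dtl, Clspn, Cdca7, Exo1, Mcm2, and Uhrf1 have roles in S phase or DNA repair, with log2 fold changes of -4.87, -4.67, -4.61, -4.55, -4.48, and -4.46. For most of them the third PBS library was the lowest of the PBS libraries, as for Mcm2, which was at 137, 160.2, and 88.8 CPM with PBS and at 7.72, 6.39, and 3.07 CPM with LPS. The remaining 4 belong to other functions. Rasgrp3, an exchange factor for Ras and Rap, fell from 64.7, 85.4, and 33.2 to 1.61, 1.65, and 0.43 CPM (log2 fold change -5.60), and the neuronal pentraxin Nptx1 from 43.4, 26.4, and 24.3 to 0.684, 0.727, and 0.552 CPM (log2 fold change -5.57). Nanos1, an RNA-binding repressor, and Cnr2, the cannabinoid receptor of immune cells, fell by 5.27 and 4.46 on the log2 scale.

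**Figure D2:**
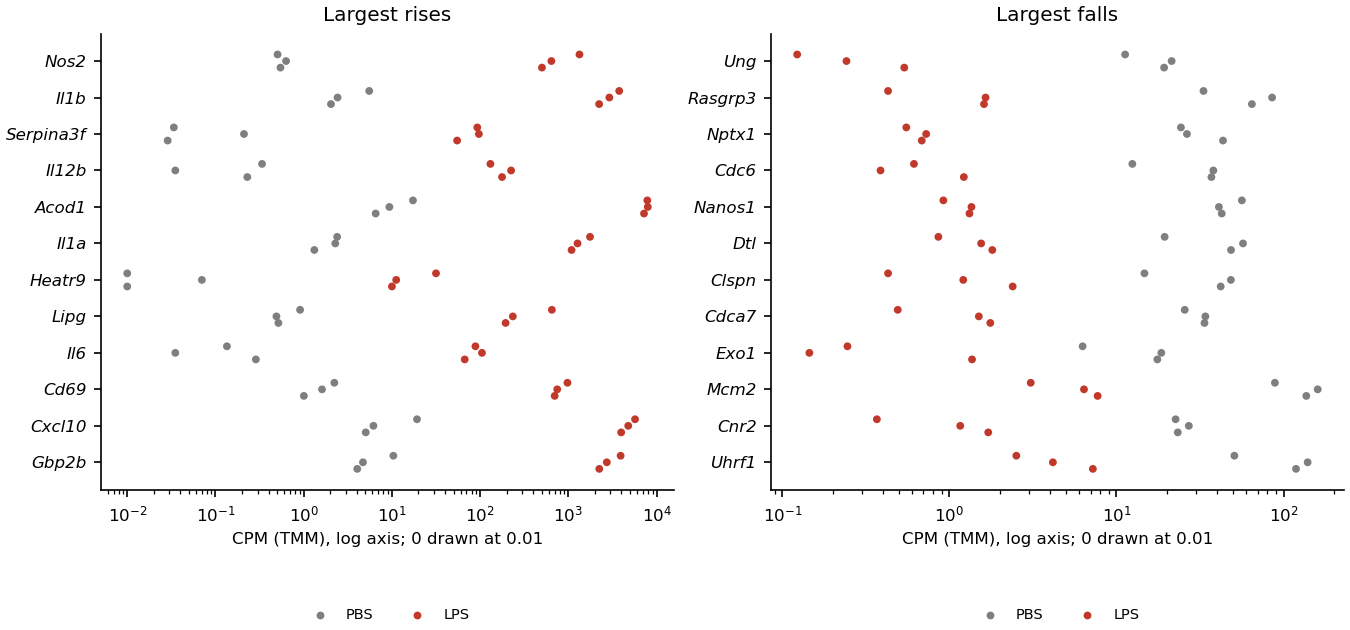
Level of the 12 genes with the largest rises (left) and the 12 with the largest falls (right) among protein-coding genes whose libraries did not overlap and whose higher condition had a mean of at least 10 CPM; each point is 1 library, the x axis is CPM on a log scale, and the rows within a gene are replicates 1 to 3 from bottom to top. The PBS and LPS points of each gene are separated by the rule of choice, from 0.545, 0.631, and 0.506 CPM against 502, 642, and 1337 CPM for Nos2 at the top left.

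Interferon-stimulated genes rose nearly without exception. Of 44 tested, 43 rose and none fell, with a median log2 fold change of 4.17 against -0.061 for all genes. Rsad2, the antiviral enzyme viperin, was at 40.1, 55.6, and 190.4 CPM in the PBS libraries and 13500, 14880, and 21420 CPM in the LPS libraries (log2 fold change 7.44, SE 0.88, adjusted p = 5.85e-05). Cmpk2, a mitochondrial nucleotide kinase next to it in the genome, rose from 23.1, 29.1, and 91.5 to 6808, 7427, and 9317 CPM (log2 fold change 7.36), and Ifit1, which binds foreign RNA, from 14.7, 21.6, and 69.6 to 3309, 3869, and 5363 CPM (log2 fold change 6.89). Together the 44 genes summed to 2058, 2563, and 4749 CPM in the PBS libraries and to 64280, 72230, and 102900 CPM in the LPS libraries. The third PBS library thus had the highest level without LPS and the third LPS library the highest with it. Without that set all 44 rose, and 43 rose with total counts.

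The interferon-inducible GTPases, which coat and disrupt the vacuoles of intracellular pathogens, rose in all of the 14 cases tested, also with total counts, with a median log2 fold change of 6.9. Gbp2 was at 14, 18.4, and 30.3 CPM in the PBS libraries and 2524, 3088, and 3959 CPM in the LPS libraries (log2 fold change 7.25, SE 0.56, adjusted p = 3.23e-06). Gbp3, Gbp4, and Gbp7 rose by 7.30, 8.28, and 6.80 on the log2 scale. Iigp1, Igtp, and Irgm1, of the immunity-related GTPases, rose by 7.29, 5.09, and 3.96. The smallest rise was that of Gbp8 (2.41). Summed over the family, the level was 137, 179, and 316 CPM with PBS and 10660, 12530, and 17300 CPM with LPS. Gbp11 held no read in the PBS libraries and was at 1.22, 2.18, and 1.47 CPM with LPS.

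Upstream of these genes, the interferon β gene itself was near its limit of detection without LPS. No PBS library held a read of Ifnb1, and the LPS libraries were at 1.95, 2.62, and 2.58 CPM. Irf7, the factor that amplifies type I interferon, rose from 24.1, 36.9, and 126 to 1122, 1367, and 2285 CPM (log2 fold change 4.67, SE 0.85, adjusted p = 0.00106), and Irf1 from 37.4, 44.5, and 54.8 to 448, 588, and 458 CPM (log2 fold change 3.45). Both chains of the type I interferon receptor rose less, Ifnar1 by 1.65 and Ifnar2 by 1.49. Irf9, the DNA-binding subunit of ISGF3, rose by 1.42, Irf2 by 1.99, and Irf5 by 1.10, or by 0.44 with total counts, where it was not called. Irf3, which TRIF signaling activates as a protein, had a log2 fold change of -0.35 (adjusted p = 0.0548) and Irf8, a factor of the myeloid lineage, of 0.54 (adjusted p = 0.142). In all, 8 of 11 genes of this group rose and none fell.

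The promoters of these genes carry the letters of the interferon-stimulated response element. The RefSeq promoter table on GRCm38.p6, which spans 300 bases from 250 before to 50 after each start, was searched on both strands for GAAANNGAA, for the NF-κB letters GGGANTTTC, and for the E2F letters TTTCCCGC or TTTGGCGC. Matches of different motifs overlapped in 12 promoters. Of the genes tested, 10089 had an entry. GAAANNGAA was found in 8.56% of all promoters in the table, in 7.60% of those of genes tested, in 12.4% of those of genes that rose, and in 26.7% of those of genes that rose at least 16-fold. It was found in 23 of 38 promoters (60.5%) of the interferon-stimulated genes and in 9 of 10 of the GTPases. The interferon-stimulated genes had been chosen for what is known of their control, so their share is a description. The promoters of Rsad2 at chr12:26456403-26456702 (minus strand), Ifit1 at chr19:34640639-34640938 (plus strand), and Gbp2 at chr3:142620413-142620712 (plus strand) are shown as members of both groups that carry these letters. They are written 5′ to 3′ on the strand of the gene, with matches in capitals on either strand, and 2 of the 3 matches in Ifit1 overlap each other.
Rsad2: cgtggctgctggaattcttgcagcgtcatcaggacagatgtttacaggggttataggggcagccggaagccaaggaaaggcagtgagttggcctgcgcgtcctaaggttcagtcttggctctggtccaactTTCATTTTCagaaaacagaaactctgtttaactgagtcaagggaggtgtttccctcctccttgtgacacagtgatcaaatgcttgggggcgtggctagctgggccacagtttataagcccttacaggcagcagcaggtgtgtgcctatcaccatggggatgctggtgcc
Ifit1: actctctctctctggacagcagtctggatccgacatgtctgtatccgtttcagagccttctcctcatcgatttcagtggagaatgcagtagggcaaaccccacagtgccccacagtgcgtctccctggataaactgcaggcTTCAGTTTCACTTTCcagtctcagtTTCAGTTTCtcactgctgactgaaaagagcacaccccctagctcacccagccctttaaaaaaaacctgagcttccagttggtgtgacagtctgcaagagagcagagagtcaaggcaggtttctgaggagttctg
Gbp2: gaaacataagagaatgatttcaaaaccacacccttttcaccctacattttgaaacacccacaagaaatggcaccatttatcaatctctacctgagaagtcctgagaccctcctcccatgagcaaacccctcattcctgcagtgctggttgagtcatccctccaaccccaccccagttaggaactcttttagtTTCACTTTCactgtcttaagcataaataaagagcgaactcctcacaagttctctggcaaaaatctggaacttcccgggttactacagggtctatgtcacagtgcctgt

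Genes of the TLR4 receptor and its proximal signaling rose in 15 of 24 cases and fell in 1, with a median log2 fold change of 0.84. The coreceptor Cd14 was at 213, 175, and 406 CPM in the PBS libraries and 1392, 1519, and 2193 CPM in the LPS libraries (log2 fold change 2.68, SE 0.40, adjusted p = 2.53e-04). Myd88, the adaptor, rose from 45.7, 44.5, and 66.8 to 316, 366, and 464 CPM (log2 fold change 2.87). Irak3, a kinase-like inhibitor of the same pathway, rose by 3.64 and Map3k8, a kinase upstream of ERK, by 2.81. Tab1, a partner of the kinase TAK1, fell by 0.83 on the log2 scale. With total counts, 8 of the 24 rose and 5 fell, and the median was 0.18. Among the other Toll-like receptors, 7 of 9 rose. Tlr3, the receptor for double-stranded RNA, rose from 16, 16.9, and 16.2 to 326, 341, and 428 CPM (log2 fold change 4.48), and Tlr2, the receptor for bacterial lipoproteins, from 41.0, 47.7, and 100.2 to 1043, 1056, and 1091 CPM (log2 fold change 4.08). Tlr1, Tlr6, Tlr7, Tlr8, and Tlr9 rose by 1.5 to 2.10. The remaining 2, Tlr5 and Tlr13, were called lower, and this count was 0 without PBS library 3 or LPS library 1 and 1 without PBS library 1 or LPS library 2.

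Subunits and inhibitors of NF-κB rose in 15 of 16 cases, with a median of 2.94. Nfkbia, the inhibitor IκBα, was at 43.5, 41.3, and 82.1 CPM in the PBS libraries and 652, 757, and 913 CPM in the LPS libraries (log2 fold change 3.8, SE 0.40, adjusted p = 2.72e-05). Nfkbiz, the nuclear inhibitor-like factor IκBζ, rose by 5.00 and Tnfaip3, the ubiquitin-editing enzyme A20, by 3.79. The DNA-binding subunits Nfkb1, Nfkb2, Rel, and Relb rose by 2.86, 3.07, 2.37, and 2.43, and Rela by 1.04, or by 0.38 with total counts, where it was not called. Nfkbid had a log2 fold change of 0.37 (adjusted p = 0.557). With total counts, 12 of the 16 rose.

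The NF-κB letters were rarer in promoters than the interferon element, at 1.11% of the table and 1.003% of promoters of genes tested. The share was 1.91% for genes that rose, 3.38% for genes that rose at least 16-fold, and 0.802% for genes tested and not called. The letters were found in 4 of 18 promoters (22.2%) of the NF-κB group and in 3 of 17 (17.65%) of the interleukins and colony-stimulating factors. Of the CXC and CX3C chemokines, 4 of 10 promoters (40.0%) held them, namely those of Cxcl1, Cxcl2, Cxcl3, and Cxcl9. The 12 promoters of CC chemokines held no match, while 11 of the 14 CC chemokines tested rose. Promoters of the interferon-stimulated genes and of the GTPases held no match either. The promoters of Nfkbia at chr12:55492598-55492897 (minus strand) and Cxcl2 at chr5:90903649-90903948 (plus strand) are shown as an inhibitor and a chemokine with these letters. The capitals in Nfkbia mark 2 matches of the NF-κB letters and, between them, 1 of the interferon element.
Nfkbia: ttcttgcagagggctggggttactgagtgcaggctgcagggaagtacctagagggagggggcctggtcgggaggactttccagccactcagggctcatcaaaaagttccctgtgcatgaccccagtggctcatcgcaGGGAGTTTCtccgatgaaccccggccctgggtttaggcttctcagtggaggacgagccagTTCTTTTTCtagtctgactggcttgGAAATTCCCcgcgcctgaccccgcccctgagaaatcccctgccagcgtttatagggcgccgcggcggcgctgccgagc
Cxcl2: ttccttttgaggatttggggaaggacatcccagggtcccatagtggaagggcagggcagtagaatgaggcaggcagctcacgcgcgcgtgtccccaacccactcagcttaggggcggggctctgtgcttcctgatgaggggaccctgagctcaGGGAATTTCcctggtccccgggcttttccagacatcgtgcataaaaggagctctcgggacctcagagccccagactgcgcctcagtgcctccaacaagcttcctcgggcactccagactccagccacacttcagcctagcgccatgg

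Feedback inhibitors and mRNA decay factors moved in both directions. Of 21 genes, 13 rose and 4 fell, and the median log2 fold change was 2.42. Socs3 and Socs1, which inhibit JAK-STAT signaling, were at 3.73, 2.63, and 3.98 and 0.545, 0.0702, and 0.742 CPM with PBS and at 860.5, 1051, and 1635 and 36.9, 40.3, and 77.0 CPM with LPS (log2 fold changes 8.42 and 6.79). Dusp2, a nuclear MAP kinase phosphatase, rose by 5.04, and Zfp36, the mRNA decay factor tristetraprolin, by 3.41. Dusp6, a phosphatase of ERK, and Zfp36l1, a relative of tristetraprolin, fell by 1.27 and 1.84 on the log2 scale. Members of 1 family therefore moved in opposite directions in both cases. Of the AP-1, ATF, and early response factors, 10 of 23 rose (43.5%, against 18.3% of all genes), led by Batf2 (5.43), Batf (3.97), and Ier3 (3.15). Myc was the only one called lower with TMM factors, and it was not called without LPS library 2, LPS library 3, or PBS library 3. With total counts, 8 of the 23 rose and 5 fell.

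Of 17 interleukins and colony-stimulating factors tested, 14 rose, with a median log2 fold change of 4.35. Beyond Il1a, Il1b, Il6, and Il12b, the alarmin Il33 was at 0.684, 1.79, and 6.63 CPM with LPS and had 1 read in all with PBS, and Il27, which codes for the p28 subunit of IL-27, rose from 0.459, 0.737, and 0.978 to 62.4, 84.5, and 77.7 CPM (log2 fold change 6.69). Antiinflammatory cytokines rose with them. Il10 was at 2.38, 2.17, and 3.81 CPM with PBS and 36.2, 42.0, and 93.1 CPM with LPS (log2 fold change 4.35, SE 0.45, adjusted p = 2.35e-05), and Il1rn, the antagonist of the IL-1 receptor, at 278, 267, and 364 and 1740, 2058, and 5952 CPM (log2 fold change 3.42, SE 0.61, adjusted p = 9.04e-04). The third LPS library had the highest Il1b and Il10 levels and the second the highest Il6 level. Il15 and Il18, which act on NK and T cells, rose by 4.29 and 3.69. Csf3, the granulocyte colony-stimulating factor, was near its limit of detection with PBS (0.0287, 0, and 0 CPM) and was at 5.08, 5.08, and 9.88 CPM with LPS. Lif had a log2 fold change of 1.38 (adjusted p = 0.408). The interleukin called lower, Il16, was not called without PBS library 1, PBS library 2, LPS library 1, or LPS library 2.

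Ligands of the TNF superfamily rose in 8 of 13 cases and fell in 1, or 2 without LPS library 1. Tnf was at 15.4, 11, and 47.7 CPM in the PBS libraries and 1044, 1179, and 591 CPM in the LPS libraries (log2 fold change 5.25, SE 0.68, adjusted p = 1.04e-04). Tnfsf15, a costimulator of T cells, rose from 0, 0.21, and 0 to 16, 19.7, and 18.1 CPM (log2 fold change 7.98), and Tnfsf10, the death ligand TRAIL, from 1.24, 1.23, and 2.60 to 333, 336, and 441 CPM (log2 fold change 7.78). Tnfsf4 and Tnfsf9, which code for OX40L and 4-1BBL, rose by 6.44 and 2.43. Tnfsf12, the ligand TWEAK, fell by 1.3 on the log2 scale, and Tnfsf13b, the B-cell factor BAFF, had a log2 fold change of 0.72 (adjusted p = 0.334). Unlike most cytokine groups, the summed level was lowest in the third LPS library, at 1452, 1600, and 1118 CPM with LPS against 55.6, 49.5, and 85.4 CPM with PBS.

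Chemokines rose in both main families. Of 14 CC chemokines, 11 rose and none fell, with a median of 4.51. Ccl5, which attracts T cells and monocytes, was at 1.95, 4.21, and 8.47 CPM in the PBS libraries and 1112, 1387, and 2405 CPM in the LPS libraries (log2 fold change 8.39, SE 0.81, adjusted p = 1.46e-05). Ccl3 and Ccl4, the macrophage inflammatory proteins, rose by 5.50 and 5.56, Ccl2 and Ccl7, which attract monocytes, by 4.13 and 4.88, and Ccl22, a ligand of CCR4, by 5.98. Ccl17, the other ligand of CCR4, had no read with PBS and was at 1.56, 3.29, and 1.90 CPM with LPS. Ccl6, which resting macrophages express, had a log2 fold change of 0.20 (adjusted p = 0.403), while Ccl9, its neighbor in the genome, rose from 763, 738, and 1088 to 4683, 4866, and 6004 CPM (log2 fold change 2.59). Of 12 CXC and CX3C chemokines, 8 rose and 1 fell. The interferon-inducible ligands of CXCR3, Cxcl9, Cxcl10, and Cxcl11, rose by 7.86, 8.89, and 9.50, and the neutrophil attractants Cxcl1, Cxcl2, and Cxcl3 by 5.07, 5.58, and 7.59. Cxcl2, whose promoter is shown above, was at 1.61, 2.10, and 12.7 CPM in the PBS libraries and 254, 295, and 236 CPM in the LPS libraries. DESeq2 gave it no p-value. Cxcl14 fell by 2.60 on the log2 scale, and the platelet-type chemokines Pf4 and Ppbp had log2 fold changes of 0.33 and 0.15 without a call.

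Receptors for chemoattractants were divided. Of 16 tested, 6 rose (37.5%) and 4 fell (25%), against 18.3% and 20.2% of all genes. The count of 4 was 2 without LPS library 2 or LPS library 3. With total counts, 4 rose and 6 fell, and with the library sets as a block 9 rose and 3 fell. The receptors for formylated bacterial peptides rose, Fpr1 from 3.73, 4.49, and 6.24 to 146, 162, and 216 CPM (log2 fold change 5.18, SE 0.29, adjusted p = 6.61e-07) and Fpr2 by 6.55 on the log2 scale. Ccrl2, a chemerin-binding receptor, rose by 5.94, and Ptafr, the receptor for platelet-activating factor, by 1.35. Cxcr4, the receptor for CXCL12, fell from 42.4, 60.2, and 21.1 to 2.69, 2.57, and 4.05 CPM (log2 fold change -3.74, SE 0.49, adjusted p = 1.18e-04), and C5ar2, the second receptor for C5a, fell by 1.63. Ccr7, the lymph node homing receptor, was at 0, 0, and 0.202 CPM in the PBS libraries and 0.0977, 0.484, and 0.859 CPM in the LPS libraries and was not called (log2 fold change 2.75, SE 1.51, adjusted p = 0.163).

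Among the remaining secreted factors, Saa3, an acute phase apolipoprotein, was at 4.82, 5.93, and 9.31 CPM in the PBS libraries and 1895, 1956, and 3306 CPM in the LPS libraries (log2 fold change 8.48, SE 0.56, adjusted p = 1.53e-06), and haptoglobin (Hp) rose by 3.32. The alarmins S100a8 and S100a9, which also served as neutrophil markers, were at 21.6, 41.4, and 74.3 and 40.4, 84.1, and 159 CPM with PBS and at 34.6, 69.3, and 147 and 66.8, 137, and 316 CPM with LPS and were not called. In all, 4 of 7 acute phase proteins and calgranulins rose, and 2 did without LPS library 3. With the library sets as a block all 7 rose, S100a8 and S100a9 included. Edn1, the vasoconstrictor endothelin 1, was at 0.402, 0, and 0.101 CPM in the PBS libraries and 23.7, 32.9, and 65.6 CPM in the LPS libraries (log2 fold change 7.80, SE 0.89, adjusted p = 4.65e-05) and was the only one of 15 growth factors called higher. With PBS library 1 left out, 2 were. Gdf15 and Hgf fell by 1.6 and 0.66 on the log2 scale, whereas Tgfb1, Vegfa, and Igf1 had log2 fold changes of 0.26, -0.17, and -0.38 without a call.

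Presentation on MHC class I rose as a whole, in 17 of 18 genes with a median of 2.79. Tap1, a subunit of the peptide transporter, was at 32.1, 38.2, and 51.3 CPM in the PBS libraries and 665, 818, and 1085 CPM in the LPS libraries (log2 fold change 4.40, SE 0.36, adjusted p = 5.05e-06), and Tap2 rose by 3.50. Nlrc5, the transactivator of these genes, rose by 4.72. The immunoproteasome subunits Psmb8, Psmb9, and Psmb10 rose by 2.69, 3.25, and 3.06, and B2m, the common light chain, by 1.48. H2-K1 rose by 1.46 and the nonclassical H2-T22 by 4.05, the latter with 34.5% of its 50-base words shared with other genes. Over all 49 proteasome genes, 19 rose and 2 fell (1 without LPS library 3), with a median of 0.36, and with total counts 10 rose, 7 fell, and the median was -0.29. Psme2, a subunit of the PA28 activator, rose by 3.02. Psmc3ip, which is listed with the proteasome by its symbol but acts in homologous recombination, fell by 3.28.

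Genes of presentation on MHC class II varied widely between libraries of the same condition. Cd74, the invariant chain, was at 6.75, 14.6, and 136 CPM in the PBS libraries and 17.5, 38.8, and 215 CPM in the LPS libraries, and H2-Ab1 was at 1.61, 3.72, and 34.0 CPM in the PBS libraries and 8.50, 13.8, and 57.3 CPM in the LPS libraries. The third library of each condition was the highest in both cases, and neither gene was called (adjusted p = 0.711 and 0.611). Of 11 genes tested, only the transactivator Ciita was called higher, and it was not called without PBS library 1, PBS library 2, or LPS library 3. With the library sets as a block, 6 of 11 rose.

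Costimulatory molecules rose in 8 of 13 cases and fell in 3. Cd40 was at 7.06, 9.86, and 13.7 CPM in the PBS libraries and 767, 924, and 1183 CPM in the LPS libraries (log2 fold change 6.55, SE 0.47, adjusted p = 2.43e-06). Cd274, the PD-1 ligand PD-L1, rose by 6.15, and Cd86, Icosl, and Cd200 by 2.85, 3.23, and 3.95. Cd80, the partner of CD86, had a log2 fold change of -0.16 (adjusted p = 0.4). Havcr2, Vsir, and Cd276, which code for TIM-3, VISTA, and B7-H3, fell by 1.79, 1.62, and 1.0. Of 13 complement genes, 5 rose and none fell. C3 was at 15.9, 30.4, and 51.5 CPM in the PBS libraries and 1278, 1439, and 1611 CPM in the LPS libraries (log2 fold change 5.47, SE 0.52, adjusted p = 1.30e-05), and the inhibitor Cd55 rose by 2.46, whereas C1qa, C1qb, and C1qc had log2 fold changes of 0.23, 0.38, and 0.16 without a call. Cfb rose by 6.99, but 79.5% of its exonic bases overlap another annotated gene on the same strand, so its reads are uncertain.

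Of 20 inflammasome and cell death genes, 15 rose and 1 fell, with a median of 1.74. Nlrp3 was at 44.4, 38.3, and 115 CPM in the PBS libraries and 668, 709, and 647 CPM in the LPS libraries (log2 fold change 3.36, SE 0.54, adjusted p = 4.63e-04). Casp4, the murine caspase-11 that senses cytosolic LPS, rose from 11, 11.5, and 12.7 to 258, 292, and 414 CPM (log2 fold change 4.78), Casp1 by 3.21, and their substrate Gsdmd by 2.44. Mefv, Aim2, and Mlkl, which code for pyrin, a DNA sensor, and the executor of necroptosis, rose by 6.25, 2.61, and 4.04. Nlrp1b fell by 2.33, and Ripk1 and Ripk3 both had log2 fold changes of -0.02 (adjusted p = 0.917 and 0.966). In the BCL2 family, 6 of 16 rose and 3 fell (37.5% and 18.75%, against 18.3% and 20.2% of all genes). The survival factors Bcl2a1d and Mcl1 rose by 5.33 and 1.6, the former with 79.5% of its 50-base words shared with other genes. Bcl2 and the proapoptotic Bmf fell by 2.55 and 4.19.

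In metabolism, the genes of nitric oxide and itaconate stood out, with 8 of 10 higher and a median of 3.71. The arginine importer Slc7a2 rose from 19.1, 24.1, and 27.5 to 508, 557, and 1105 CPM (log2 fold change 4.94, SE 0.45, adjusted p = 1.00e-05). Ass1, which recycles citrulline, Gch1, which starts the synthesis of the cofactor of nitric oxide synthase, and Arg2 rose by 4.19, 3.79, and 3.51. Arg1 was at 28.4, 9.05, and 48.3 CPM in the PBS libraries and 38.2, 16.9, and 112 CPM in the LPS libraries and was not called (adjusted p = 0.4). Each LPS library lay above the PBS library of its set, a pairing that the main fit does not use. In the prostaglandin pathway, 4 of 16 genes rose and 4 fell (2 without LPS library 1). Each count of 4 is 25% of the list, against 18.3% and 20.2% of all genes. With total counts, 4 of the 16 rose and 9 fell. Ptgs2, the inducible cyclooxygenase, was at 6.32, 1.75, and 3.07 CPM in the PBS libraries and 403, 538, and 628 CPM in the LPS libraries (log2 fold change 7.13, SE 0.82, adjusted p = 4.67e-05), Ptges, the inducible prostaglandin E synthase, rose by 6.56, Pla2g4a, the cytosolic phospholipase, by 2.59, and the receptor Ptger4 by 2.27. Hpgd, which degrades prostaglandins, and Hpgds, the synthase of prostaglandin D, fell by 1.14 and 1.25.

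Genes of glycolysis rose in 13 of 21 cases with TMM factors, with a median of 0.80, but in 7 with total counts, when 1 fell and the median was 0.11. Pfkfb3, which makes the activator of phosphofructokinase, rose from 42.0, 47.6, and 62.4 to 499.5, 621, and 2001 CPM (log2 fold change 4.36, SE 0.69, adjusted p = 4.12e-04), and its log2 fold change was 3.63 with total counts. The glucose transporter Slc2a1 rose by 2.09 and Pfkl by 1.6. Pkm had a log2 fold change of 0.18 (adjusted p = 0.583). Mitochondrial groups lay near 0 with TMM factors. Of 76 nuclear genes of the respiratory chain, none rose and 1 fell (median 0.10), and of 23 genes of the TCA cycle, none rose and 2 fell. These 2, Idh1 and Idh2, code for isocitrate dehydrogenases that use NADP, and that of Idh1 lies outside mitochondria. The genes of the NAD-dependent enzyme of the cycle, Idh3a, Idh3b, and Idh3g, were not called. Idh1 fell from 264, 301, and 247 to 129, 135, and 113 CPM (log2 fold change -1.11, SE 0.13, adjusted p = 4.78e-05). The count of 2 was 1 without any of PBS library 1, PBS library 2, LPS library 2, or LPS library 3. With total counts, 28 respiratory chain genes and 13 TCA cycle genes fell and none rose.

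Among 14 genes of iron handling, 5 rose, or 3 without LPS library 3, and 3 fell. The shares of 5 and 3 were 35.7% and 21.4%, against 18.3% and 20.2% of all genes. With total counts, 4 of the 14 rose and 6 fell. The exporter ferroportin (Slc40a1) fell from 465, 559, and 679 to 63.3, 71.1, and 76.1 CPM (log2 fold change -3.02, SE 0.27, adjusted p = 9.25e-06), while the importer Slc11a2, ceruloplasmin (Cp), and the reductase Steap4 rose by 2.35, 6.24, and 5.84 on the log2 scale. Steap3, a reductase of endosomes, fell by 2.02. Sod2, the mitochondrial superoxide dismutase, was at 54.9, 53.4, and 79.3 CPM in the PBS libraries and 1095, 1178, and 1656 CPM in the LPS libraries (log2 fold change 4.39, SE 0.35, adjusted p = 4.44e-06), whereas Hmox1, Nqo1, and Gclm, targets of NRF2, had log2 fold changes of 0.64, 0.063, and 0.11 without a call. Of the 19 genes of this group, 5 rose (26.3%, against 18.3% of all genes) and none fell. With total counts, 4 of the 19 rose and 5 fell, and the median went from 0.17 to -0.46.

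Receptors of the cell surface moved in both directions. Among scavenger and C-type lectin receptors, 9 of 19 rose and 2 fell. Clec4e, the glycolipid receptor Mincle, was at 7.84, 9.37, and 17.5 CPM in the PBS libraries and 1846, 1859, and 1558 CPM in the LPS libraries (log2 fold change 7.24, SE 0.53, adjusted p = 2.77e-06), and Marco and Olr1, which bind bacteria and oxidized lipoproteins, rose by 4.84 and 5.30. Cd163 and Scarb1, receptors for hemoglobin complexes and HDL, fell by 0.91 and 0.84, and Mrc1, the mannose receptor, was at 1464, 1500, and 999.7 CPM in the PBS libraries and 1033, 1011, and 764 CPM in the LPS libraries without a call (log2 fold change -0.50, adjusted p = 0.139). The Fc receptors Fcgr1, Fcgr2b, and Fcgr4 rose by 3.31, 3.16, and 2.52. Receptors of apoptotic cell uptake were mixed, since Timd4 and Mertk rose by 2.99 and 1.19 (Mertk by 0.52 and without a call with total counts) while the integrin chains Itgb3 and Itgb5 fell by 1.38 and 1.29. Of 6 sialic acid–binding Siglec receptors, 3 rose. Siglece was at 2.70, 3.16, and 4.92 CPM in the PBS libraries and 42.4, 64.6, and 50.8 CPM in the LPS libraries (log2 fold change 3.87, SE 0.37, adjusted p = 1.39e-05), and Cd33 and Siglec1 rose by 1.77 and 1.22. With total counts, Siglec1 was at 0.55 and not called.

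The adenosine receptors Adora2a and Adora2b rose by 6.97 and 4.16, and the nucleotide receptor P2ry14 by 4.47, while P2ry1 fell by 3.81. Adora2a, which raises cyclic AMP, was at 0.402, 0.175, and 0.169 CPM in the PBS libraries and 28.9, 37.8, and 31.1 CPM in the LPS libraries. The ATP receptor P2rx7 had a log2 fold change of -0.47 (adjusted p = 0.133). Of 32 integrins and adhesion molecules, 11 rose (34.4%) and 4 fell (12.5%), against 18.3% and 20.2% of all genes. With total counts, 8 of them rose and 5 fell, and the median went from 0.32 to -0.31. Itgb8, which activates TGF-β, was at 0.201, 0.0702, and 0.0337 CPM with PBS and 10.0, 14.2, and 21.2 CPM with LPS (log2 fold change 7.09, SE 0.63, adjusted p = 8.17e-06), and Icam1 rose by 4.51. The matrix metalloproteinases Mmp13, Mmp14, and Mmp25 rose by 5.50, 5.59, and 5.80. Of 37 genes of metalloproteinases, ADAMs, and TIMPs, 9 rose (24.3%) and 2 fell (5.41%), against the same shares of all genes. With total counts, 7 of these rose and 8 fell, and the median went from 0.43 to -0.17. Among factors and receptors of the macrophage lineage, 10 of 23 rose and 7 fell. Cebpa and Cebpb, related transcription factors of myeloid cells, moved in opposite directions, from 107, 131, and 119.8 to 7.57, 8.23, and 12.6 CPM (log2 fold change -3.66, SE 0.28, adjusted p = 3.20e-06) and from 8.10, 6.81, and 21.1 to 54.3, 43.2, and 87.3 CPM (log2 fold change 2.36, SE 0.56, adjusted p = 0.00555). Csf3r, the receptor for G-CSF, rose by 3.85, and Mef2d fell by 1.41.

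The most complete group to fall was that of DNA replication. Of 37 genes, 33 fell and none rose, with a median log2 fold change of -2.25. Mcm6, a subunit of the replicative helicase, was at 279, 313, and 188 CPM in the PBS libraries and 66.2, 67.1, and 55.2 CPM in the LPS libraries (log2 fold change -2.05, SE 0.39, adjusted p = 0.00139), and Pold1, the catalytic subunit of polymerase δ, fell from 53.8, 59.6, and 34.7 to 3.71, 4.41, and 2.03 CPM (log2 fold change -3.86, SE 0.51, adjusted p = 1.14e-04). Summed over the 37 genes, the level was 2392, 2593, and 1523 CPM with PBS and 586, 565, and 469 CPM with LPS. The third PBS library was thus the lowest of its condition and still above every LPS library. Without that set, 35 fell. DNA repair genes fell in 17 of 31 cases with a median of -1.61, among them the mismatch repair genes Msh6 and Exo1, which fell by 3.50 and 4.55. Msh6 was at 72.0, 68.5, and 43.1 CPM in the PBS libraries and 6.01, 4.65, and 5.53 CPM in the LPS libraries.

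Genes of mitosis had a median of -1.38, yet only 3 of 35 were called lower and 1 higher. Their summed level was 1600, 1688, and 409 CPM with PBS and 838, 746, and 382 CPM with LPS, so the third PBS library lay below the other 2 LPS libraries. Mki67, the proliferation antigen, was at 251, 307, and 56.1 CPM in the PBS libraries and 139.6, 139.6, and 67.8 CPM in the LPS libraries and was not called (adjusted p = 0.343). With the library sets as a block, 28 fell and 1 rose, and 31 fell without the third set, an alternative chosen after the data had been seen. The count of 3 was 8 without PBS library 3, 1 without LPS library 1 or LPS library 2, and 0 without PBS library 1, PBS library 2, or LPS library 3. Pttg1, the separase inhibitor securin, went against the group and rose from 8.13, 9.75, and 9.85 to 52.9, 58.0, and 80.9 CPM (log2 fold change 2.79, SE 0.17, adjusted p = 1.17e-06).

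E2F letters were found in 1.57% of all promoters, in 2.85% of those of genes tested, in 4.13% of those of genes that fell, and in 7.90% of those of genes that fell at least 4-fold. They were found in 10 of 33 promoters (30.3%) of DNA replication genes, in 4 of 25 (16%) of DNA repair genes, and in none of 33 of mitosis genes. The promoters of Mcm6 at chr1:128359656-128359955 (minus strand), with 2 matches, and Cdc6 at chr11:98907901-98908200 (plus strand), with 1, are shown as called members of the replication group with these letters.
Mcm6: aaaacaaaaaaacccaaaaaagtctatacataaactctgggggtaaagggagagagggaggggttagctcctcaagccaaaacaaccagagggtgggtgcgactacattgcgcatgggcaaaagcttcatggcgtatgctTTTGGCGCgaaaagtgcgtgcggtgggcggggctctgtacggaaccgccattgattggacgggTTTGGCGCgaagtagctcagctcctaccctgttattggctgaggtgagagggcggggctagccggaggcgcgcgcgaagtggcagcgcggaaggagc
Cdc6: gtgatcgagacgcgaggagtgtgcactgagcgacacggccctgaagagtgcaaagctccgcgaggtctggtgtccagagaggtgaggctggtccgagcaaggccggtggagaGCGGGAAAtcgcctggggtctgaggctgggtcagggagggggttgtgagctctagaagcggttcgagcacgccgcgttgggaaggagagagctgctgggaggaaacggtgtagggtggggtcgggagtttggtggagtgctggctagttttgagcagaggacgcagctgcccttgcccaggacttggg

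Genes for the assembly of ribosomes fell as well. Of 26 genes of ribosome biogenesis, 17 fell and 1 rose, with a median of -0.82. Dkc1, the pseudouridine synthase of ribosomal RNA, was at 37.4, 34.5, and 36.9 CPM in the PBS libraries and 10.2, 8.52, and 7.43 CPM in the LPS libraries (log2 fold change -2.05, SE 0.19, adjusted p = 1.19e-05), and Polr1b and Gnl3, which code for a subunit of RNA polymerase I and nucleostemin, fell by 2.11 and 1.96. Wdr43 went against the group, with a rise of 0.97, or 0.32 without a call with total counts. Of 75 cytosolic ribosomal protein genes, 2 fell and none rose with TMM factors (median -0.063), which were Rpl10a (-1.88) and Rpl12 (-1.44). With total counts, 54 of the 75 fell, at a median of -0.71, which is that of all genes. Of 76 mitochondrial ribosomal protein genes, 19 fell and 6 rose, and with total counts 59 fell and 2 rose. Of 20 cytosolic aminoacyl-tRNA synthetases, 7 fell and 3 rose (4 fell without LPS library 3), and Mars and Yars, for methionine and tyrosine, fell by 1.15 and 1.01 while Wars, the interferon-inducible enzyme for tryptophan, rose from 49.6, 42.9, and 44.6 to 141, 172, and 206 CPM (log2 fold change 1.92, SE 0.18, adjusted p = 9.88e-06).

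Cholesterol synthesis genes fell in 8 of 20 cases and rose in none, with a median of -0.44. Dhcr7, the last enzyme of the pathway, was at 35.4, 36.2, and 27.4 CPM in the PBS libraries and 6.20, 5.33, and 4.36 CPM in the LPS libraries (log2 fold change -2.64, SE 0.28, adjusted p = 2.51e-05), and Sqle, the squalene epoxidase, fell by 1.18. The count of 8 was 3 without LPS library 3, 4 without PBS library 1 or LPS library 2, and 5 without PBS library 2, while with total counts 17 fell. Among genes of lipid efflux, Abca1, the cholesterol exporter, was at 268, 322, and 299 CPM in the PBS libraries and 979, 998, and 998 CPM in the LPS libraries (log2 fold change 1.74, SE 0.11, adjusted p = 1.31e-06), and Ch25h and Nr1h3, which make 25-hydroxycholesterol and the receptor LXRα, rose by 4.90 and 2.10. Apoe had a log2 fold change of 0.079, and Pparg, a lipid-sensing nuclear receptor, fell by 2.00.

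Of 303 numbered zinc finger genes, 90 fell and 21 rose, so that 29.7% fell against 20.2% of all genes, a difference that was not tested, and their median was -0.45. Zfp566 and Zfp395 fell by 3.47 and 3.19, and Zfp558 rose by 3.52. Of 48 RhoGAP and RhoGEF genes, 18 fell (37.5%) and 8 rose (16.7%), with Arhgap19 at -4.25 and Arhgef3 at 2.82. Of 14 circadian genes, 6 fell and none rose. Dbp and Tef, related output factors of the clock, fell by 2.44 and 2.16, and Per2 and Per3 by 1.12 and 1.86, the former with a log2 fold change of -0.79 and no call without the third set, whereas Clock and Arntl had log2 fold changes of -0.036 and -0.24 without a call. Solute carriers were called in both directions, with 44 of 211 higher (20.9%, against 18.3% of all genes) and 58 lower (27.5%, against 20.2%), differences that were not tested. Among those named by their size were Slc2a6, a hexose transporter, at 6.22 and Slc22a23, an orphan transporter, at -3.33. Of 46 TRIM genes, 18 rose (39.1%) and 11 fell (23.9%), or 7 without LPS library 3, with Trim30a, a regulator of NF-κB signaling, higher by 3.61.

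Gene families were also formed from the symbols alone, as all tested genes with the same letters before the first digit and at least 10 members, which gave 159 families. The families with the highest share of members that rose were Ifi (14 of 16), Ms, which holds the Ms4a membrane proteins (9 of 12), Ccl (11 of 15), Tlr (8 of 11), Ly (7 of 10), Psmb (7 of 10), Stx, the syntaxins (9 of 13), and Il (30 of 45), while Parp had the same share as Il (8 of 12). Those with the highest share that fell were Mcm (7 of 10), Utp, of small ribosomal subunit processing (6 of 10), Tbc (15 of 28), Rad (9 of 17), Galnt, which start O-glycosylation (5 of 11), Polr (12 of 28), Mettl, the methyltransferases (9 of 21), Cep, of the centrosome (15 of 36), and Akap (5 of 12). The syntaxins and the proteasome β subunits had medians of 0.71 and 0.67, which came to 0.044 and 0.021 with total counts.

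Genes that rose took over a large share of the reads. They held 20.5 to 23% of the reads in the PBS libraries and 49.3 to 56.4% in the LPS libraries. The groups were formed from the calls in the same libraries, so the direction of these shifts largely follows from the choice and only their size is described. Genes that fell went from 13.6 to 15.1% down to 3.40 to 4.58%, and genes without a call from 63.3 to 65.0% down to 40.1 to 46.1%. The gain was spread over many genes. The 10 genes with the largest gain made up 17.7% of it, 92 genes 50% of it, and 637 genes 90% of it. The 10 were Rsad2, Ifit2, Cmpk2, Acod1, Rnf213, Cxcl10, Ifit1, the TNF receptor Tnfrsf1b, Ccl9, and Parp14, most of which are known to be induced by interferon. The 10 genes with the most reads in each library took a smaller share with LPS (10.2 to 10.9%) than with PBS (11.5 to 12.0%), and the 1000 with the most reads took a larger share (66.3 to 69.9% against 57.4 to 59.2%).

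**Figure D3:**
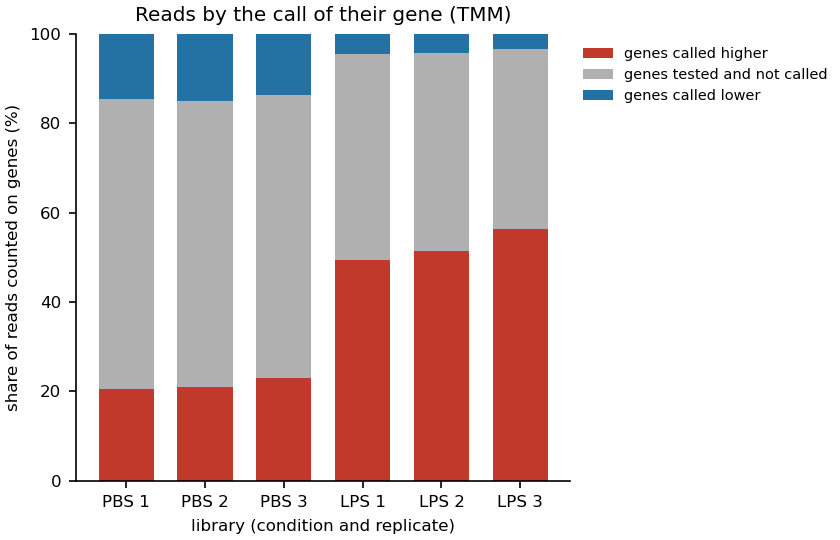
Share of the reads counted on genes, in percent, in each of the 6 libraries, divided by the call of the gene with TMM factors; the bars of a library sum to about 100%. Genes called higher take 20.5 to 23% of the reads with PBS and 49.3 to 56.4% with LPS, a direction that largely follows from grouping the genes by their call.

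The genes that lost the most reads differed in call between the scalings. They were Ctsd, Ctsb, Psap, Lyz2, Gpnmb, Apoe, Lrp1, Stab1, Adam8, and Lgals3, most of them lysosomal or secreted proteins of resting macrophages. Cathepsin D (Ctsd) had a log2 fold change of -0.17 with TMM factors and was not called, and of -0.81 with total counts, where it was. The saposin precursor Psap moved from 0.054 to -0.60 and was called lower only with total counts. Lrp1, an endocytic receptor, was the only one of the 10 called with TMM factors (log2 fold change -0.87). Lysozyme (Lyz2) changed sign, from 0.25 to -0.40, without a call under either scaling.

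Across the lists, every median was lower with total counts. This follows from the change of scaling, which shifted the log2 fold change of the genes by a median of -0.65. With TMM factors, the lists ordered from the GTPases at 6.9 to DNA replication at -2.25. With total counts, 14 of 59 medians changed sign, all of them from above to below 0. Interferon-stimulated genes, GTPases, CC chemokines, and interleukins had the same numbers of rises under both scalings, at 43, 14, 11, and 14. Of 48 lysosomal genes, 6 rose and 2 fell with TMM factors, and 1 rose and 16 fell with total counts. Of 22 ER chaperones and genes of the unfolded protein response, none rose and 4 fell with TMM factors, or 2 without PBS library 3 or LPS library 3, and 17 fell with total counts. Autophagy genes went from 5 higher and 9 lower of 31 to none higher and 19 lower.

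**Figure D4:**
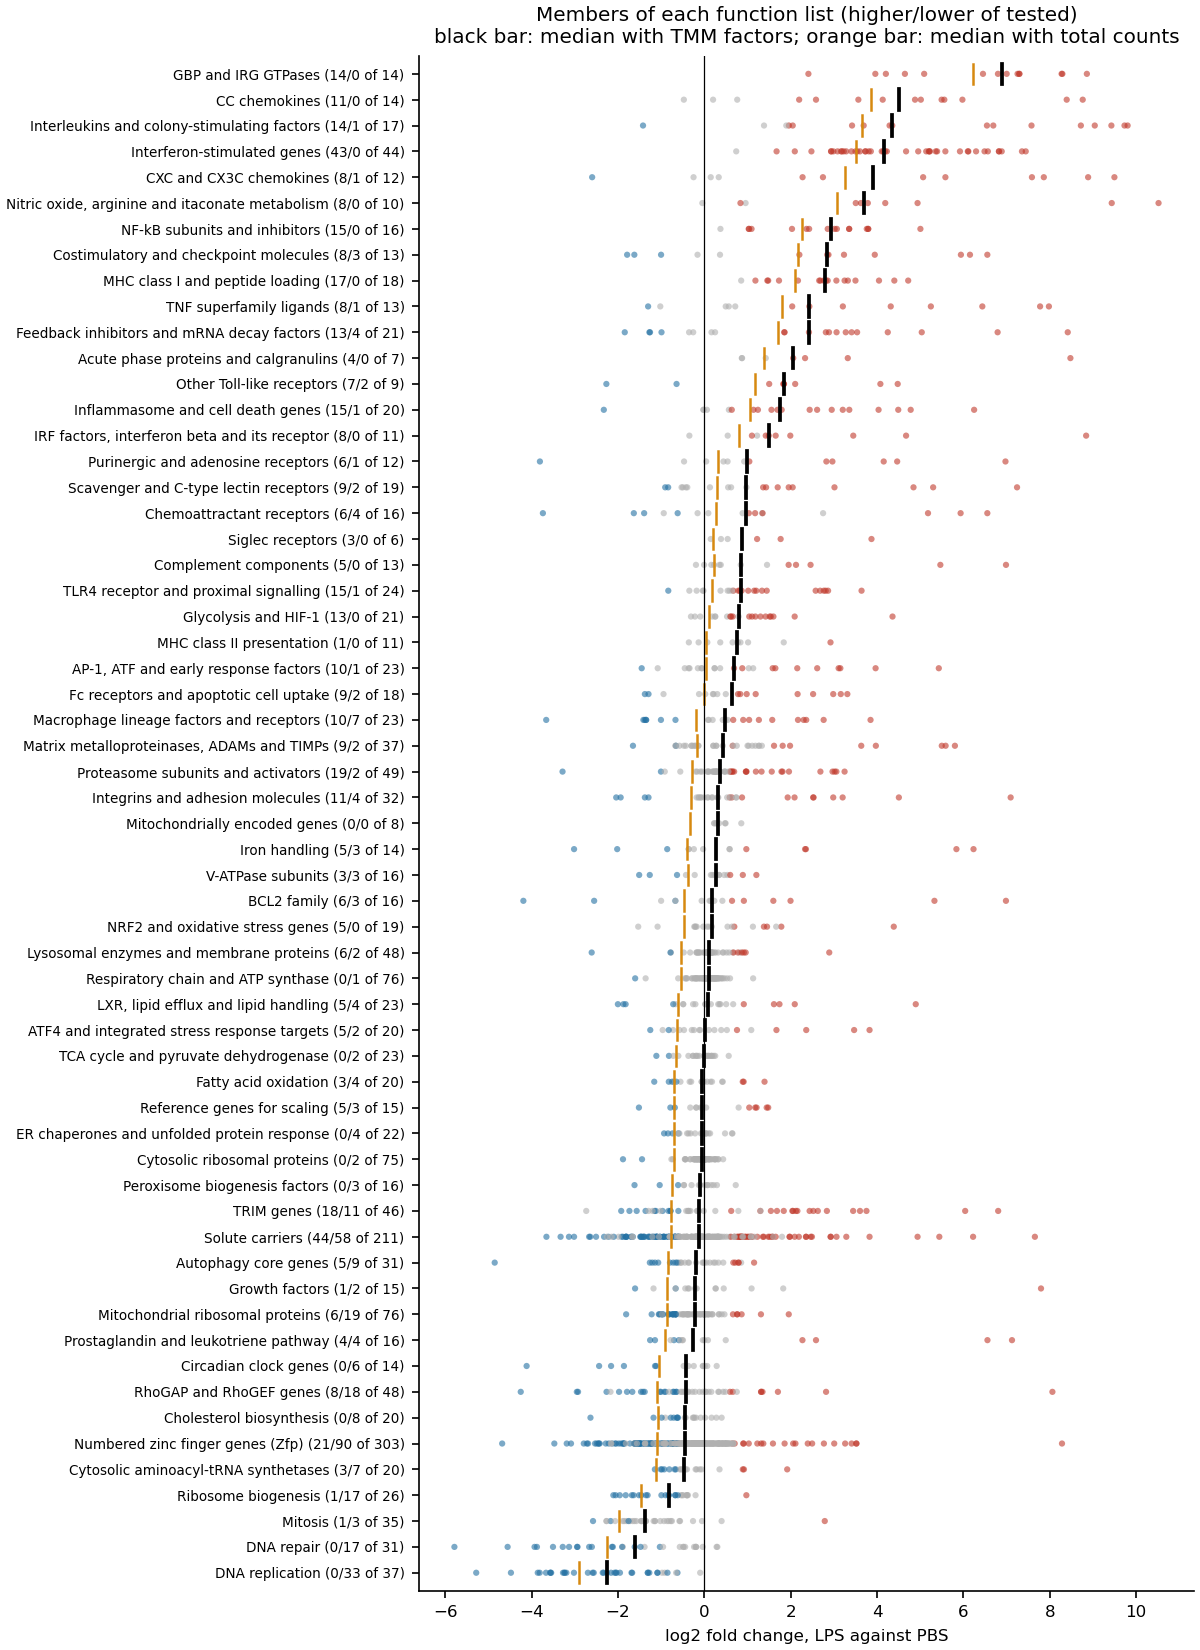
Log2 fold change with LPS against PBS of the members of 59 lists of genes, 1 list per row, with the number called higher and lower of those tested beside the name; points are genes with TMM factors (red called higher, blue called lower, gray not called), and the black and orange bars are the medians of the list with TMM factors and with total counts. The lists run from GBP and IRG GTPases at a median of 6.9 to DNA replication at -2.25. The orange bar lies to the left of the black bar in every list, which follows from the change of scaling.

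Genes in use as references for PCR did not give 1 answer. With TMM factors, 5 of 15 rose and 3 fell. Tbp, which codes for the TATA-binding protein and served as the reference in PCR of the study, was at 16.3, 17.3, and 17 CPM in the PBS libraries and 15.9, 15.8, and 15.9 CPM in the LPS libraries (log2 fold change -0.086, SE 0.096, adjusted p = 0.5). Actb, Pgk1, and Ywhaz rose by 1.18, 1.04, and 1.21, and B2m by 1.48. Gapdh, the glycolytic enzyme, had a log2 fold change of 0.80 (adjusted p = 0.146). Ppia, cyclophilin A, fell by 0.79. Those named here thus ran from -0.79 to 1.48 with TMM factors, a wider range than the 0.65 between TMM factors and total counts. With total counts, 2 rose and 9 fell, Actb, Pgk1, and Ywhaz were at 0.53, 0.38, and 0.55 without a call, and Tbp was at -0.74.

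**Figure D5:**
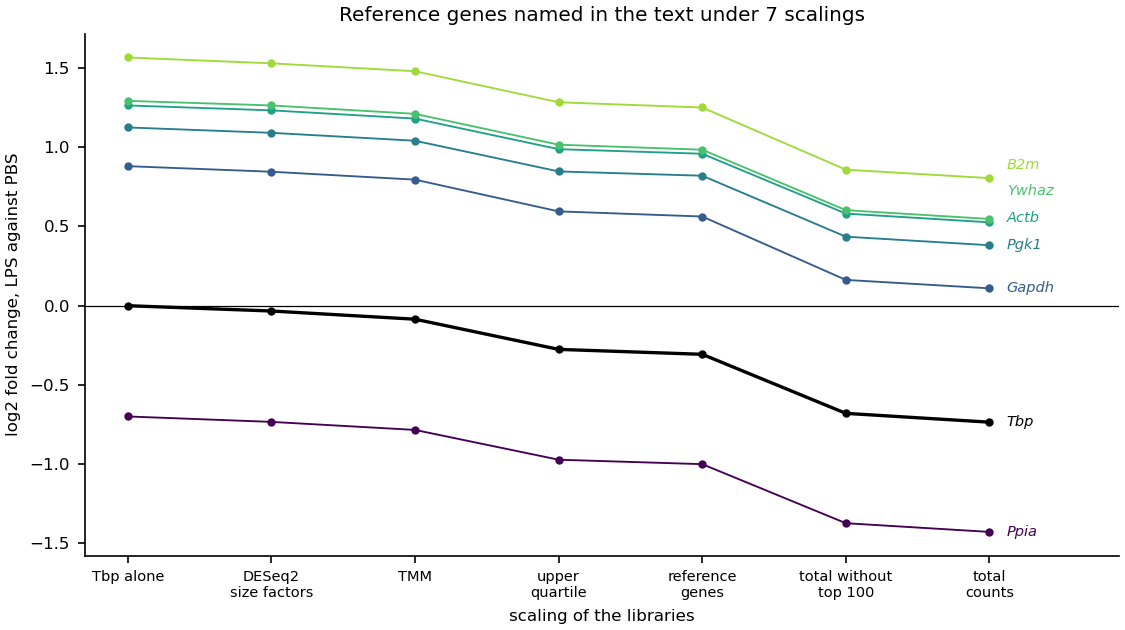
Log2 fold change with LPS against PBS of the reference genes named in the text (y axis) under 7 scalings of the libraries (x axis), with 1 line per gene. All lines run down from left to right, and Tbp goes from near 0 when it is the only reference, through -0.086 with TMM factors, to -0.74 with total counts.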

How the data were processed

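RNA-Seq libraries were made by the submitters from polyadenylated RNA with a stranded kit. The authors deposited 1 file of raw counts for each library, as whole numbers of reads per gene with no normalization, and, per the labels' processing notes, used FastQC, Trimmomatic, STAR, HTSeq, and DESeq2 without versions being named there. The genome build, the annotation, and the strand setting of the counting are not given in the sources used here. Rows for reads outside genes (9080447 to 10807861 not unique and 1636491 to 2131270 on no feature in the 6 libraries) were left out. Identifiers were matched without versions to GENCODE M21 on GRCm38 (42462 of 43626). Libraries of 1 condition differed from each other with a chi-square per gene of 17.1 or more, and each was counted as 1 replicate.

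Counts of all 12 libraries were fitted in R 4.3.3 with edgeR 4.0.16 (filterByExpr, TMM factors, quasi-likelihood test, 1 mean per condition, contrast LPS against PBS, standard errors from the same fit). Adjusted p-values follow Benjamini-Hochberg over the 14308 genes tested. Genes past both limits, 0.05 for the adjusted p and 1.5-fold for the change, were called. CPM are counts relative to TMM-scaled library sizes, and intervals of counting error were not used because the spread between libraries was larger. A gene with up to 3 reads over the 3 libraries of a condition is given by its levels. The script of the test was tested on simulated data.

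The 59 lists of functions, the markers of 10 cell types, and the rule for named genes were chosen with earlier results of these data known, and the lists are described by counts and medians beside those of all genes. Named were the 12 largest rises and falls, the 10 genes with the largest gain and loss of reads, up to 3 called members per list in its main direction and 2 in the other and the member with the highest level, all members of lists of up to 20 genes, markers, reference genes, genes that the study names for these libraries, and the 8 symbol families with the highest share called in each direction. The largest rises and falls were taken among protein-coding genes whose conditions did not overlap and whose higher condition had a mean of at least 10 CPM. Library sets were found by clustering the correlations of residuals, and each is a run of 4 consecutive numbers in the labels. The labels carry no replicate number. Promoters and their motifs were read from a RefSeq table of 27025 genes, and shared 50-base words from the GENCODE transcripts.

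Alternatives were DESeq2 size factors, upper quartile factors, total counts, total counts without the 100 genes with the most reads, 15 reference genes, or Tbp alone in place of TMM factors. Others were DESeq2 1.42.0, no filter on low counts beyond 1 count per gene, a stricter filter of 10 counts in every library, a fit of the 6 libraries alone, the library sets as a block, a test against the fold minimum, no fold minimum, and fits without 1 library at a time. Chosen after seeing the data were the block with total counts and a fit without the third library set. Libraries with 3′-sialyllactose were not compared here. Some genes that the rule named are not reported here.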

Additional observations from a re-analysis of the deposited data

How the results depend on the processing

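The number of genes called stayed within 1.5 times of 5502 under all alternatives but 1, the library sets as a block with total counts (9098), and was 4656 to 5388 in fits without 1 library, lowest without LPS library 3. The direction of the calls depended on the scaling. Total counts gave 1535 genes higher and 6657 lower (18.7% of calls higher, against 47.5% with TMM factors), total counts without the 100 genes with the most reads 1600 and 6255, and the block with total counts 1698 and 7400. A test against the fold minimum called 1939 higher and 1731 lower. Upper quartile factors (37.0% higher) and the reference genes (36.0%) lay between. The median fold change (log2) over the genes tested was -0.061 with TMM factors, -0.0088 with DESeq2 size factors, -0.0091 in DESeq2, 0.0 over all genes with at least 1 count, 0.022 with Tbp alone, -0.25 with upper quartile factors, -0.28 with the reference genes, -0.65 without the 100 genes with the most reads, and -0.71 with total counts or with the block and total counts. It was -0.0997 to -0.038 when each library was left out, and 2253 to 2646 genes were higher and 2403 to 2818 lower. With library sets as the block, which the labels' numbers do not define, 6378 genes were called, 2939 higher and 3439 lower, and 5487 of the 5502 genes were among them. Medians of 14 of 59 lists changed sign with total counts, of 13 without the top 100 genes or with the block and total counts, of 6 with upper quartile factors or the reference genes, of 5 with Tbp alone, and of at most 4 under each other alternative. Among genes named, Psap changed sign with a call under total counts (-0.60, also with the block), and Apoe with the block and total counts (-0.60). Of 244 named genes that were called, 234 kept the call with total counts, 202 with at least 10 counts in every library, where 244 of the 289 named genes were tested, 228 in the test against the fold minimum, 238 to 241 when any library was left out, and all 244 with the block. The block moved the count of genes called higher from 4 to 7 for acute phase proteins, from 9 to 15 for metalloproteinases, from 5 to 8 for NRF2 targets, from 1 to 3 for growth factors, and from 0 to 2 for ER chaperones, and that of genes called lower from 2 to 4 for the TCA cycle, ATF4 targets, and growth factors and from 0 to 2 for NRF2 targets. Fold changes of genes with few reads in PBS are limited by depth. The cause of these differences was not tested.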

Other observations

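The calls were uneven over the level of the genes. Of 4 bins of protein-coding genes of equal size by mean level, the highest had 38.1% that rose and 9.92% that fell, and in the bin just below the median level 9.79% rose and 34.3% fell. Over all genes tested, 18.3% rose and 20.2% fell. Among gene classes, 22 of 53 unprocessed pseudogenes rose (41.5%) and none fell, while of 34 snoRNA genes 5 fell (14.7%) and none rose. Of 286 antisense genes, 62 rose (21.7%) and 36 fell (12.6%). These differences were not tested. These classes share sequence or position with coding genes, and the part of this in the counts was not tested. Protein-coding genes that rose had a median genomic span of 29110 bp, those that fell of 22870 bp, and all tested of 24220 bp, with a median of 10 exon blocks in each.

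Some lists not described above lay near the centre. Of 8 mitochondrially encoded genes tested, none was called (median 0.31), and 1 rose without PBS library 2 or LPS library 3. Their summed level was 10480, 11600, and 8106 CPM with PBS and 15010, 13600, and 11260 CPM with LPS. Of 20 fatty acid oxidation genes, 3 rose and 4 fell (2 without PBS library 1, PBS library 2, or LPS library 3). These shares of 15% and 20% lay near those of all genes, 18.3% and 20.2%. Of 16 genes of the V-ATPase, 3 rose and 3 fell, and of 16 peroxisome biogenesis factors 3 fell and none rose (1 fell without PBS library 2, LPS library 1, or LPS library 3). Each count of 3 in these 2 lists of 16 is 18.75% of the list, near the 18.3% of all genes that rose and the 20.2% that fell. Of 20 ATF4 and integrated stress response targets, 5 rose and 2 fell (3 rose without PBS library 1 or PBS library 2), with Nupr1 higher by 3.47 and Sesn2 lower by a log2 fold change of -1.25. The stress factors Atf4 and Ddit3 themselves had log2 fold changes of 0.23 and -0.10 without a call.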
